A study of Mus musculus with 8 samples.

Results

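Canonical PRC1 CBX and PHC subunits were followed through neural differentiation of wild-type and *Pcgf5*-/- mouse embryonic stem cells. The members were the rows of the deposited expression files named *Cbx2*, *Cbx6*, *Cbx7*, *Cbx8*, *Phc1*, *Phc2* or *Phc3*, chosen by name, and they made up 7 of the 24849 rows of each file. All 7 passed the filter on low values that left 13214 genes for testing. The libraries came from the mouse embryonic stem cell line MPI-II, of the strain 129S2/SvPas, and only poly(A)-selected RNA was sequenced. The groups were WT and *Pcgf5*-/- cells at day 0, grown on feeder cells in serum with LIF and the 2 inhibitors CHIR99021 and PD0325901, and both genotypes at day 6 in the differentiation medium N2B27, with 2 samples in each of the 4 groups. The *Pcgf5*-/- cells were made with TALENs against exon 2 and a pair of drug selections, and single colonies were picked. How many colonies the 4 *Pcgf5*-/- libraries stand for is not given in the sources used here, so clone and genotype cannot be told apart.

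Polycomb repressive complex 1 (PRC1) is a family of complexes around the ubiquitin ligases RING1A and RING1B, which place a ubiquitin on histone H2A. Canonical PRC1 holds a CBX protein, whose chromodomain reads the methylated histone H3 tail set by PRC2, and a PHC protein, whose SAM domain forms chains that compact chromatin, together with PCGF2 or BMI1. Variant complexes hold RYBP or YAF2 instead of CBX and PHC, and PCGF5 belongs to these, so that the members described here are not subunits of the complex that the mutation targets. *Cbx7* is known as the main CBX gene of pluripotent mouse embryonic stem cells, and *Cbx2* and *Cbx8* as CBX genes of differentiating cells.

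The genes lie on 5 chromosomes (build mm9). *Cbx2* spans chr11:118884343-118892584 on the plus strand and *Cbx8* spans chr11:118899750-118902227 on the minus strand, with 7165 bases between their 3′ ends. *Cbx6* (chr15:79654328-79664763) and *Cbx7* (chr15:79746237-79763076) are both on the minus strand, 81473 bases apart. *Cbx6* overlaps the protein-coding gene *Npcd* on the same strand, so its values are uncertain where the counting could split their fragments. *Phc1* spans chr6:122267749-122290245 (minus), *Phc2* chr4:128331946-128430125 (plus) and *Phc3* chr3:30798217-30868337 (minus).

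*Phc1* and *Phc2* were the members that differed between the genotypes at day 6, in opposite directions, and the 250 bases before their annotated starts are printed for that reason, 5′ to 3′ on the strand of the gene, with CpG in capitals. The *Phc1* window (chr6:122290580-122290829, minus strand) was read from mm9 before the outermost GENCODE M1 start, 334 bases upstream of the start of the deposited locus. The 2 *Phc2* windows are RefSeq sequences of build GRCm38.p6 that each matched chromosome 4 of mm9 once, on the plus strand. The first (chr4:128331696-128331945) lies before the start of the deposited locus, and the second (chr4:128404565-128404814) before an annotated start 72869 bases further downstream. A further matched window (chr4:128365732-128365981), before a start 34036 bases downstream of the locus start, is not printed. None of these windows overlaps an annotated exon.

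*Phc1*: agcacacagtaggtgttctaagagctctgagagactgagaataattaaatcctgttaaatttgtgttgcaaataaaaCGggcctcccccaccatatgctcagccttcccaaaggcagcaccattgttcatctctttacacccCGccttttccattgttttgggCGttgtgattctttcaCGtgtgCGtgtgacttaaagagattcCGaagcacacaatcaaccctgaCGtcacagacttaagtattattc

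*Phc2*, first start: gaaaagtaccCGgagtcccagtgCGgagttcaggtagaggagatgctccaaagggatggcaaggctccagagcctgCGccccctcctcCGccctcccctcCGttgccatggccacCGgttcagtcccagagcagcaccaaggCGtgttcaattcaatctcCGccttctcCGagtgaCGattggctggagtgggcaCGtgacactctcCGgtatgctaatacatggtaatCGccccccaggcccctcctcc

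*Phc2*, downstream start: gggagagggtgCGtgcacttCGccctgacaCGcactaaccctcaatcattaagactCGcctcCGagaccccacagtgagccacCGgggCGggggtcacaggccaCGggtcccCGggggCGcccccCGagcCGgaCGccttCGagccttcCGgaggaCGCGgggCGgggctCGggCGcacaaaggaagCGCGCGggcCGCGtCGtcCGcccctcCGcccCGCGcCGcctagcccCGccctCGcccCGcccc

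The *Phc1* window held 7 CpG, and 46.3% of 32851 RefSeq windows of that length held as many or more. The first *Phc2* window held 13 CpG (31.5% with as many or more) and the downstream one 34 CpG (3.53%), whereas the *Phc2* window not printed held 1 CpG (92.1%). RefSeq windows were matched for 6 of the 7 members. The FPKM values are per gene, so the starts of *Phc2* cannot be told apart in these data.

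FPKM, a level per unit of transcript length and of sequenced fragments that the authors computed, makes levels of different genes comparable per length. Depth is not in the files, and the low values put the libraries at 0.993 to 1.29 times the depth of the first WT library of day 0. The targeted gene *Pcgf5*, on chromosome 19, had 5.18 and 3.63 FPKM in WT and 1.28 and 1.84 FPKM in *Pcgf5*-/- libraries at day 0, then 9.16 and 5.06 FPKM in WT and 0.669 and 0.457 FPKM in *Pcgf5*-/- libraries at day 6. Both *Pcgf5*-/- libraries lay below both WT libraries on each day. The summed level of 10 mESC markers was 1433 to 1526 FPKM at day 0, and that of 10 neural progenitor markers was 19.4 to 26.5 FPKM. At day 6 the mESC sum was 99.1 to 224 FPKM in WT and 644 to 681 FPKM in *Pcgf5*-/- cells, and the neural progenitor sum was 414 to 418 FPKM in WT and 152 to 160 FPKM in *Pcgf5*-/- cells. Thus, libraries of day 6 that the labels still call mES carried neural markers, and more mESC marker RNA remained in *Pcgf5*-/- cells. In bulk RNA, fewer cells of a type and less RNA per cell cannot be told apart.

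In the following, the values of a group are those of replicates 1 and 2, in that order. *Cbx7* was the CBX gene with the highest level in undifferentiated cells, with 27.0 and 24.0 FPKM in WT and 24.9 and 21.5 FPKM in *Pcgf5*-/- libraries at day 0. At day 6 it had 25.7 and 9.20 FPKM in WT and 33.4 and 28.0 FPKM in *Pcgf5*-/- cells. The WT libraries of day 6 were 2.80 times apart, and only the second lay below all libraries of day 0. The same library had the lower mESC marker sum, 99.1 FPKM against 224 FPKM in the first. It also had the lower sums of primitive endoderm markers (131 FPKM against 256 FPKM) and neuron markers (379 FPKM against 539 FPKM) and the higher sum of feeder fibroblast markers (129 FPKM against 46.5 FPKM), to which *Acta2* contributed 92.0 FPKM and 21.9 FPKM. The part of these cell types in the *Cbx7* values was not tested.

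*Cbx2* had 4.62 and 6.17 FPKM in WT and 6.87 and 10.9 FPKM in *Pcgf5*-/- libraries at day 0. It had 26.9 and 26.5 FPKM in WT and 19.8 and 20.3 FPKM in *Pcgf5*-/- libraries at day 6. All 4 libraries of day 6 were above all 4 of day 0. At day 6 the genotypes did not overlap, WT being higher, beside 62.2% of tested genes without overlap.

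*Cbx6* had 15.5 and 10.7 FPKM in WT and 11.8 and 12.9 FPKM in *Pcgf5*-/- libraries at day 0, and 13.1 and 14.5 FPKM in WT and 13.1 and 14.7 FPKM in *Pcgf5*-/- libraries at day 6. Its range over the 8 libraries was set by the 2 WT libraries of day 0, and the other 6 lay between them. *Cbx8* was the CBX gene with the lowest level, with 0.495 and 2.05 FPKM in WT and 0.690 and 2.02 FPKM in *Pcgf5*-/- libraries at day 0, and 4.57 and 2.58 FPKM in WT and 2.57 and 1.61 FPKM in *Pcgf5*-/- libraries at day 6. Replicates of *Cbx8* differed by 1.59 to 4.13 times within a group, which exceeded the distance between the genotypes at day 0.

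Among the polyhomeotic genes, *Phc1* had 63.6 and 61.1 FPKM in WT and 85.5 and 99.6 FPKM in *Pcgf5*-/- libraries at day 0. At day 6 it had 64.6 and 40.9 FPKM in WT and 175 and 125 FPKM in *Pcgf5*-/- cells. The 2 genotypes did not overlap on either day, beside 47.9% of tested genes at day 0 and 62.2% at day 6. The values of *Pcgf5*-/- cells at day 6 were the highest of any member in any library.

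*Phc2* had 6.91 and 8.25 FPKM in WT and 9.24 and 11.5 FPKM in *Pcgf5*-/- libraries at day 0, and 58.3 and 65.5 FPKM in WT and 34.6 and 38.1 FPKM in *Pcgf5*-/- libraries at day 6. It was high in all libraries of day 6, and there the order of the genotypes was the opposite of day 0. *Phc3* stayed low throughout, with 1.95 and 2.22 FPKM in WT and 2.21 and 2.03 FPKM in *Pcgf5*-/- libraries at day 0, and 2.86 and 2.47 FPKM in WT and 1.83 and 1.73 FPKM in *Pcgf5*-/- libraries at day 6. Only at day 6 were the genotypes of *Phc3* apart, beside 62.2% of tested genes.

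**Figure D1:**
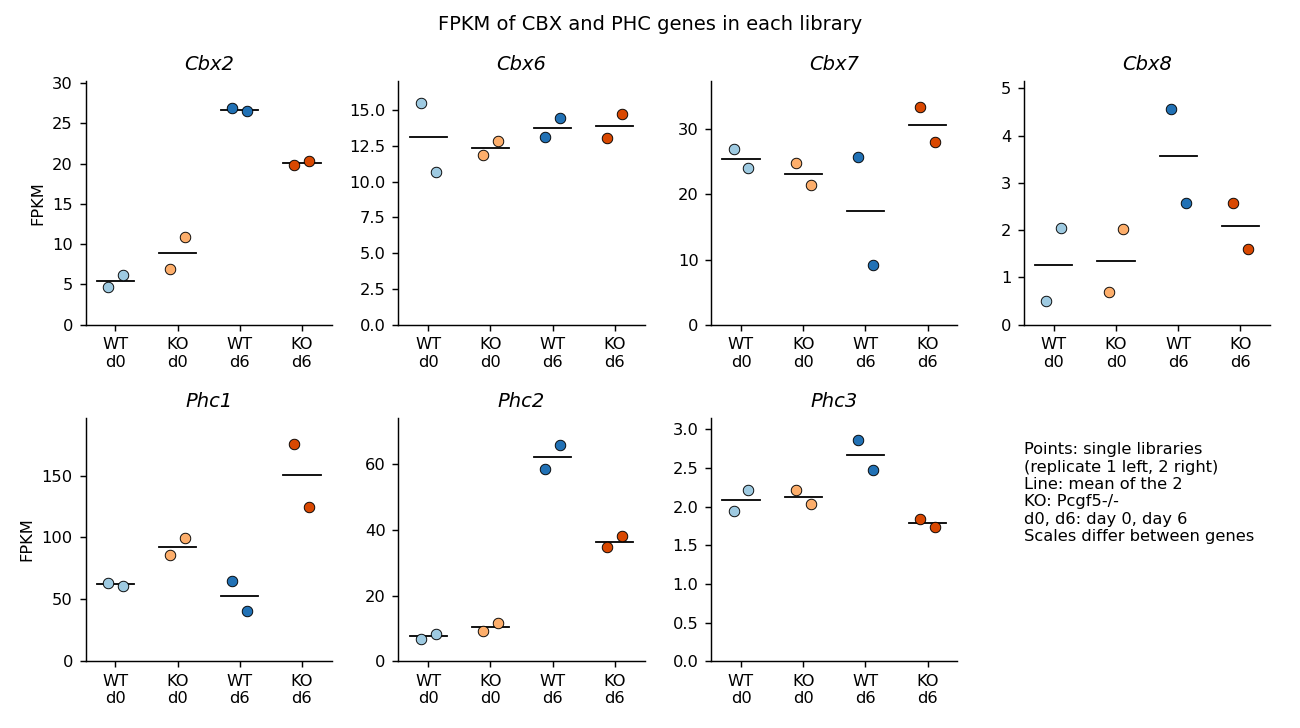
FPKM (vertical axes, each from 0 and on its own scale) of the 7 genes in the 8 libraries, with points for single libraries, replicate 1 on the left, and lines for the mean of 2; KO stands for *Pcgf5*-/-. *Cbx2* and *Phc2* were higher in the 4 libraries of day 6 than in the 4 of day 0, and *Phc1* was highest in *Pcgf5*-/- cells at day 6, at 175 and 125 FPKM.

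The order of the mean levels was the same in both genotypes at day 0: *Phc1*, *Cbx7*, *Cbx6*, *Phc2*, *Cbx2*, *Phc3* and *Cbx8*. In WT only *Phc3* and *Cbx8* overlapped as neighbours, and in *Pcgf5*-/- cells only *Phc2* and *Cbx2*. In WT at day 6 the order was *Phc2*, *Phc1*, *Cbx2*, *Cbx7*, *Cbx6*, *Cbx8* and *Phc3*, where *Phc2* overlapped *Phc1*, *Cbx7* overlapped *Cbx6* and *Cbx8* overlapped *Phc3*. In *Pcgf5*-/- cells at day 6 the order was *Phc1*, *Phc2*, *Cbx7*, *Cbx2*, *Cbx6*, *Cbx8* and *Phc3*, and only the last neighbours overlapped. *Cbx2* was thus above *Cbx7* in WT at day 6 and below it in *Pcgf5*-/- cells, on the FPKM scale.

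The replicates were less alike than the intervals that Cufflinks gave for single values. Of the 28 pairs of replicates (7 genes in 4 groups), 13 had intervals that did not overlap. Among these were *Cbx7* and *Phc1* in both groups of day 6 and *Cbx8* in all groups but *Pcgf5*-/- at day 6.

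Which CBX and which PHC gene made up most of each family's RNA was described by shares of the summed FPKM, without a test. *Cbx7* held 56.3% ± 0.50 (SD, n = 2) of the sum of the 4 CBX genes in WT and 50.8% ± 7.6 in *Pcgf5*-/- cells at day 0. At day 6 its shares were 36.6% and 17.5% in the WT libraries and 48.6% and 43.3% in the *Pcgf5*-/- libraries. *Cbx2* went from 9.71% and 14.4% of the sum in WT at day 0 to 38.3% and 50.2% at day 6, and in *Pcgf5*-/- cells from 15.5% and 23.1% to 28.8% and 31.4%. *Cbx2* held the larger share than *Cbx7* in both WT libraries of day 6 and in neither *Pcgf5*-/- library.

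The PHC genes showed a wider gap between the genotypes. *Phc1* held 85.4% to 88.2% of the summed PHC level in the 4 libraries of day 0. At day 6 it held 51.4% and 37.6% in WT and 82.8% and 75.8% in *Pcgf5*-/- cells. *Phc2* held 46.4% and 60.2% in WT and 16.4% and 23.1% in *Pcgf5*-/- cells at day 6. The *Pcgf5*-/- libraries of day 6 lay nearer to the composition of day 0 than the WT libraries did. The summed PHC level itself was 71.6 to 72.5 FPKM in WT and 97.0 to 113 FPKM in *Pcgf5*-/- libraries at day 0, and 109 to 126 FPKM in WT and 165 to 212 FPKM in *Pcgf5*-/- libraries at day 6. The summed CBX level overlapped between the genotypes on both days, at 42.9 to 47.6 FPKM over the libraries of day 0 and 52.7 to 70.3 FPKM over those of day 6.

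**Figure D2:**
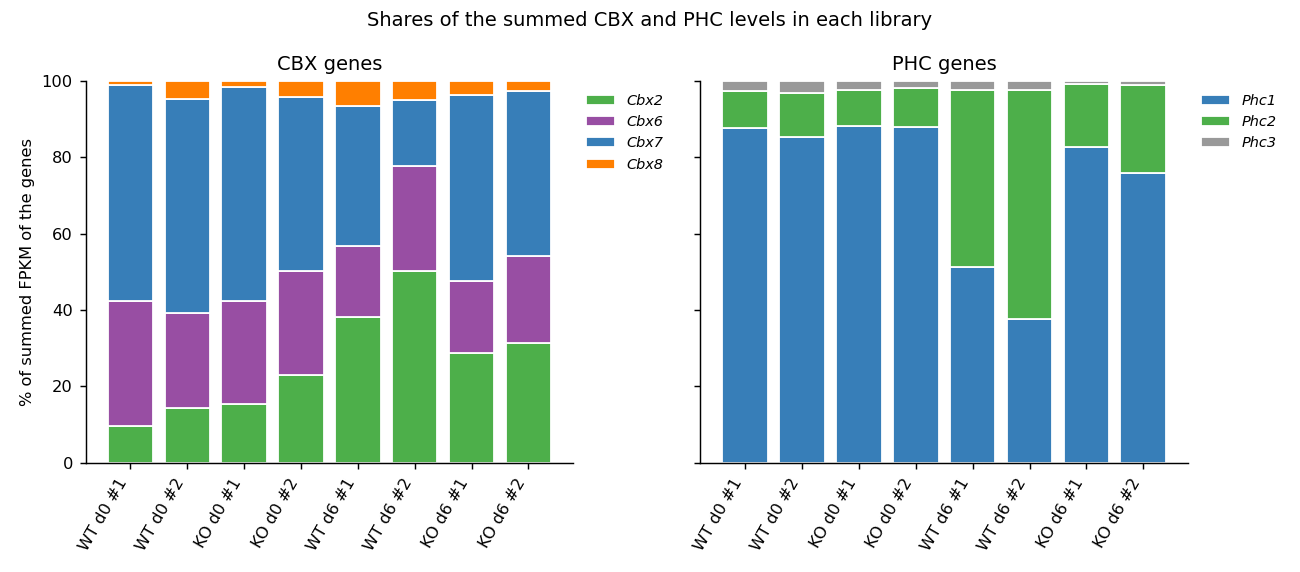
Share of each gene (percent of the summed FPKM, vertical axis) in the sum of the 4 CBX genes and of the 3 PHC genes, one bar per library. In WT at day 6 *Phc2* held 46.4% and 60.2% of the PHC sum and *Cbx2* 38.3% and 50.2% of the CBX sum, against 16.4% and 23.1%, and 28.8% and 31.4%, in *Pcgf5*-/- cells (KO).

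To ask which members change during differentiation, day 6 was compared with day 0 in each genotype with limma on log2(FPKM + 1), adjusted over all tested genes. In WT, *Phc2* rose by 2.88 on the log2 scale (SE 0.16, adjusted p = 1.07e-05), an 8.17-fold ratio of mean FPKM, and *Cbx2* rose by 2.12 (SE 0.22, adjusted p = 0.000146), a 4.94-fold ratio. These 2 of 7 members were called, beside 50.5% of all tested genes, of which 34.2% rose and 16.2% fell. The libraries of the 2 days did not overlap for 4 members, *Phc2*, *Cbx2*, *Cbx8* and *Phc3*, beside 77.6% of tested genes. *Cbx8* was higher in both WT libraries of day 6, at a difference of 1.06 (SE 0.41, adjusted p = 0.0609), and did not pass. The differences of *Cbx7* (-0.68, SE 0.37, adjusted p = 0.161), *Phc1* (-0.27, SE 0.23, adjusted p = 0.349), *Phc3* (0.25, SE 0.17, adjusted p = 0.262) and *Cbx6* (0.09, SE 0.19, adjusted p = 0.728) did not pass either. The *Cbx7* value rested on the second WT library of day 6: without the first, the difference was -1.37 (adjusted p = 0.00174), and without the second it was 0.02 (adjusted p = 0.957). Without the second WT library of day 0, *Cbx8* passed, at 1.58 (adjusted p = 0.0263).

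In *Pcgf5*-/- cells *Phc2* and *Cbx2* passed as well, beside 32.3% of all tested genes (21.9% rose and 10.4% fell). *Phc2* rose by 1.72 (SE 0.16, adjusted p = 0.000298), a 3.51-fold ratio of mean FPKM, and *Cbx2* by 1.12 (SE 0.22, adjusted p = 0.00656), a 2.25-fold ratio. *Phc1* was higher in both libraries of day 6, at a difference of 0.68 (SE 0.23, 95% interval 0.15 to 1.20, adjusted p = 0.0545). It passed when only the groups compared entered the fit (adjusted p = 0.0421) and without either WT library of day 6 (adjusted p = 0.0280 each). The other 4 members had differences of -0.17 to 0.43 and did not pass. The libraries of the 2 days did not overlap for 6 members, *Cbx8* being the exception, beside 68.4% of tested genes. The median difference of all tested genes was 0.22 in WT and 0.13 in *Pcgf5*-/- cells, and *Phc2* and *Cbx2* were still called in both when each library was scaled by its median ratio (2.65 and 1.90 in WT, 1.58 and 0.98 in *Pcgf5*-/- cells). Of all calls, 67.8% in WT and 67.9% in *Pcgf5*-/- cells were higher at day 6, and that share was 50.3% and 52.1% with this scaling and 51.3% and 53.1% with quantile normalization.

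The cell type markers moved over the same 6 days. Of the 11 tested feeder fibroblast markers, 7 fell in WT, with a median difference of -2.47, and 8 fell in *Pcgf5*-/- cells, with a median of -2.63. The summed level of the 12 feeder genes went from 249 to 337 FPKM at day 0 to 46.5 to 129 FPKM at day 6 in WT, and from 219 to 740 FPKM to 27.7 to 30.7 FPKM in *Pcgf5*-/- cells, where *Fap* was listed at 0 in both libraries of day 6. Of the 10 mESC markers, 9 fell in WT and 7 in *Pcgf5*-/- cells, where 1 rose, and of the 10 neural progenitor markers 10 rose in WT and 9 in *Pcgf5*-/- cells. Of these 10 neural progenitor markers, 6 were under 1 FPKM in all libraries of day 0 and passed the filter on low values only through day 6. The part of these cell types in the changes of *Phc2* and *Cbx2* was not tested.

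**Figure D3:**
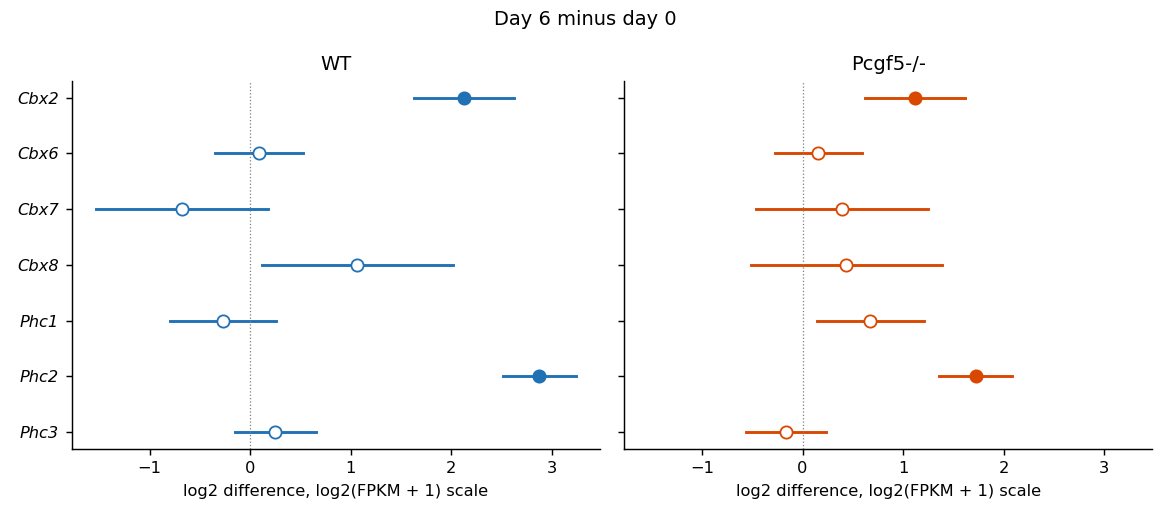
Difference between day 6 and day 0 on the log2(FPKM + 1) scale (horizontal axis) for each gene in WT and in *Pcgf5*-/- cells, with 95% intervals from limma; filled points passed an adjusted p of 0.05. *Cbx2* (2.12 and 1.12) and *Phc2* (2.88 and 1.72) passed in both genotypes.

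To ask whether loss of *Pcgf5* changes these subunits in undifferentiated cells, the genotypes were compared at day 0. No member passed, and 44 of the tested genes did (0.333%, with 0.288% higher and 0.0454% lower); 2294 had an unadjusted p under 0.05. *Cbx2* (0.61, SE 0.22, adjusted p = 0.198), *Phc1* (0.56, SE 0.23, adjusted p = 0.263) and *Phc2* (0.40, SE 0.16, adjusted p = 0.242) were higher in both *Pcgf5*-/- libraries, and these were 3 of 7 members beside 47.9% of tested genes whose libraries did not overlap. The 95% intervals of these differences were 0.11 to 1.11, 0.03 to 1.09 and 0.04 to 0.77. The other 4 members had differences of -0.13 to 0.08 and overlapping libraries. The targeted gene *Pcgf5* did not pass at day 0 either (-1.07, SE 0.28, adjusted p = 0.105), so a missing call here does not show that a gene was unchanged.

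The tested genes of chromosomes 6 and 11 were higher as a whole in *Pcgf5*-/- cells. The median difference of the tested genes was 0.48 on chromosome 11 (1086 genes), which holds *Cbx2* and *Cbx8*, and 0.41 on chromosome 6 (643 genes), which holds *Phc1*, against 0.11 over all tested genes. Centred on the median of its own chromosome, *Cbx2* differed by 0.10 (adjusted p = 0.901) and *Phc1* by 0.12 (adjusted p = 0.874) at day 0. Feeder fibroblast markers also varied at day 0: the sum of the 12 genes was 337 and 249 FPKM in WT and 219 and 740 FPKM in *Pcgf5*-/- cells, and none was at 0 in both libraries of a genotype. The second *Pcgf5*-/- library, with 740 FPKM, also had the highest *Cbx2*, *Phc1* and *Phc2* values of day 0. The part of the feeder cells in these values was not tested.

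At day 6 the genotypes differed in both PHC genes that were well expressed, in opposite directions. *Phc1* was higher in *Pcgf5*-/- cells by 1.51 on the log2 scale (SE 0.23, 95% interval 0.98 to 2.04, adjusted p = 0.00803), a 2.85-fold ratio of mean FPKM. *Phc2* was lower by 0.75 (log2 difference -0.75, SE 0.16, 95% interval -1.11 to -0.38, adjusted p = 0.0189), a ratio of 0.588. These were 2 of 7 members, beside 16.6% of all tested genes, of which 9.57% were higher and 7.05% lower. The libraries of the genotypes did not overlap for 6 of the 7 members, *Cbx6* being the exception, and this was the case for 62.2% of tested genes.

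The CBX genes did not pass at day 6. *Cbx7* was 0.94 higher in *Pcgf5*-/- cells (SE 0.37, 95% interval 0.08 to 1.79, adjusted p = 0.123), *Cbx2* differed by -0.39 (SE 0.22, adjusted p = 0.250) and *Cbx8* by -0.55 (SE 0.41, adjusted p = 0.396). The differences of *Phc3* (-0.40, SE 0.17, adjusted p = 0.157) and *Cbx6* (0.01, 95% interval -0.42 to 0.45, adjusted p = 0.977) did not pass either. Without the first WT library of day 6, *Cbx7* passed at 1.63 (adjusted p = 0.00660), and without the second its difference was 0.24 (adjusted p = 0.507).

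On chromosome 6 the median difference of the tested genes at day 6 was 0.37, on chromosome 11 it was 0.38, and over all tested genes it was 0.02. Centred on its own chromosome, *Phc1* was 1.11 higher (adjusted p = 0.0181), *Phc2* differed by -0.78 (adjusted p = 0.0162), and *Cbx2* passed at -0.79 (adjusted p = 0.0481). The call of *Phc1* was lost without the first *Pcgf5*-/- library of day 6 (1.26, adjusted p = 0.0560), and that of *Phc2* without any one of the 4 libraries of day 6 (adjusted p = 0.0524 to 0.120), its difference staying between -0.83 and -0.67. Between the genotypes at day 6 the mESC markers differed in the direction of *Phc1*: 9 of 10 were called higher in *Pcgf5*-/- cells, with a median difference of 1.97, and none was at 0. Over the 6 days their median and the difference of *Phc1* had opposite signs in *Pcgf5*-/- cells and the same sign in WT. In *Pcgf5*-/- cells 7 of 10 mESC markers fell, with a median of -1.35, where *Phc1* differed by 0.68 without passing. In WT 9 of 10 fell, with a median of -3.35, where *Phc1* differed by -0.27 without passing. Within day 6 the mESC marker sums were 224 and 99.1 FPKM in WT, with *Phc1* at 64.6 and 40.9 FPKM. The sums were 681 and 644 FPKM in the *Pcgf5*-/- libraries, with *Phc1* at 175 and 125 FPKM. The neural progenitor markers moved with *Phc2*: 9 of 10 were called lower, with a median of -1.37, and none was at 0. The part of these cell types in the PHC values was not tested.

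**Figure D4:**
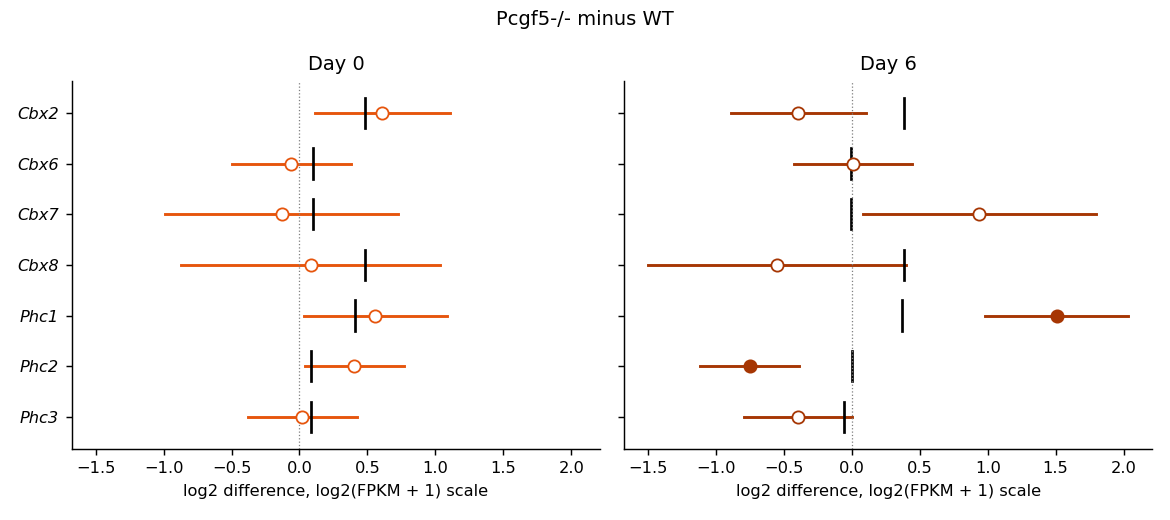
Difference between *Pcgf5*-/- and WT on the log2(FPKM + 1) scale (horizontal axis) for each gene at day 0 and day 6, with 95% intervals from limma; filled points passed an adjusted p of 0.05, and black ticks mark the median of all tested genes of the same chromosome. At day 6 *Phc1* (1.51) lay to the right of its chromosome's 0.37 and *Phc2* (-0.75) to the left of zero.

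Whether the genotype difference itself changed between the days was tested as an interaction. *Phc2* was the member that passed, with a genotype difference that was lower by 1.15 at day 6 than at day 0 (value -1.15, SE 0.22, adjusted p = 0.0410), beside 3.09% of all tested genes (1.34% higher and 1.75% lower). *Cbx2* (-1.004, SE 0.31, adjusted p = 0.107), *Phc1* (0.95, SE 0.33, adjusted p = 0.136) and *Cbx7* (1.07, SE 0.53, adjusted p = 0.269) did not pass in this fit, which holds no replicate block. With a block for the replicate number of each day, *Phc1* (adjusted p = 0.0311) and *Cbx2* (adjusted p = 0.0325) passed besides *Phc2*. The *Phc2* call was lost without any one of the 8 libraries (adjusted p = 0.0510 to 0.148), at values between -1.30 and -1.01. All of these comparisons share libraries with each other and are not independent.

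The other genes of the canonical complex were read next to the members. Of 6 such genes (*Pcgf2*, *Bmi1*, *Ring1*, *Rnf2*, *Scmh1* and *Scml2*), 4 rose and none fell from day 0 to day 6 in WT, with a median difference of 0.75, beside 34.2% of all tested genes that rose. In *Pcgf5*-/- cells 2 of the 6 rose, with a median of 0.30, beside 21.9% of all tested genes. *Ring1*, which encodes RING1A, rose by 2.15 in WT (SE 0.24, adjusted p = 0.000209) and by 1.34 in *Pcgf5*-/- cells (SE 0.24, adjusted p = 0.00449). *Rnf2*, which encodes RING1B, had 40.0 to 56.1 FPKM in all 8 libraries and passed in none of the comparisons. At day 6, 1 of the 6 was higher and 1 lower in *Pcgf5*-/- cells, beside 9.57% and 7.05% of all tested genes. The lower one was *Bmi1*, a PCGF partner of canonical PRC1, with 32.6 and 22.5 FPKM in WT and 14.6 and 12.4 FPKM in *Pcgf5*-/- cells (-0.95, SE 0.19, adjusted p = 0.0156). The higher one was the X-linked *Scml2*, with 1.23 and 0.893 FPKM in WT and 8.93 and 5.47 FPKM in *Pcgf5*-/- cells (1.96, SE 0.33, adjusted p = 0.00944). *Scml2* was already higher in both *Pcgf5*-/- libraries of day 0, at 8.43 and 3.97 FPKM against 0.626 and 0.563 FPKM in WT. That difference just missed the threshold (limma adjusted p = 0.0501). The change of its genotype difference between the days was -0.14 (SE 0.46, limma adjusted p = 0.881) and did not pass.

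The HP1 genes *Cbx1*, *Cbx3* and *Cbx5* share the chromodomain with the Polycomb CBX proteins but act outside PRC1. Of these, *Cbx1* and *Cbx5* rose over the 6 days in both genotypes, beside 34.2% of all tested genes in WT and 21.9% in *Pcgf5*-/- cells. *Cbx1* was higher in *Pcgf5*-/- cells at day 6 (0.52, SE 0.11, limma adjusted p = 0.0193), beside 9.57% of all tested genes. It lies on chromosome 11, with its median of 0.38.

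Variant PRC1 genes differed between the genotypes in both directions at day 6. Of 17 variant PRC1 genes, 2 were higher and 3 lower in *Pcgf5*-/- cells (9.57% and 7.05% of all tested genes), with a median difference of -0.11 beside 0.02 over all tested genes, and *Pcgf5* itself had the lowest value (-2.33, SE 0.28, adjusted p = 0.00421). Of 11 PRC2 genes, 3 were higher and none lower, beside the same shares, with a median of 0.24, namely *Phf19* (1.04, SE 0.24, adjusted p = 0.0233), *Ezh1* (1.01, SE 0.17, adjusted p = 0.00915) and *Suz12* (0.86, SE 0.19, adjusted p = 0.0220), of which *Ezh1* and *Suz12* lie on chromosome 11. None of the genes of these 4 lists passed at day 0, beside 0.333% of all tested genes, so the absence of calls says little about them.

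Developmental genes known as Polycomb targets were listed as a readout of the genes that PRC1 occupies in stem cells, and 20 of 25 passed the filter on low values. That filter admits a gene through the group where it is highest. A gene under 1 FPKM at day 0 therefore entered only if it was higher at day 6, and the reverse holds too. *Pax3*, at a mean of 0.036 FPKM in WT and 0.048 FPKM in *Pcgf5*-/- cells at day 0, entered in this way. The counts and medians over the 6 days are thus partly set by the filter and are no test. From day 0 to day 6, 9 rose and 3 fell in WT, with a median of 0.93, beside 34.2% and 16.2% of all tested genes. In *Pcgf5*-/- cells 8 rose and 4 fell, with a median of 0.10, beside 21.9% and 10.4%. At day 6 none was higher and 2 were lower in *Pcgf5*-/- cells, beside 9.57% and 7.05%. These were *Pax3* (9.92 and 16.2 FPKM in WT, 1.06 and 1.69 FPKM in *Pcgf5*-/- cells, difference -2.54, SE 0.25, adjusted p = 0.00377) and *Pax6* (60.3 and 65.9 FPKM in WT, 26.0 and 29.7 FPKM in *Pcgf5*-/- cells, difference -1.15, SE 0.21, adjusted p = 0.0114), both transcription factor genes of the neural lineage. *Pax6* is also among the neural progenitor markers.

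**Figure D5:**
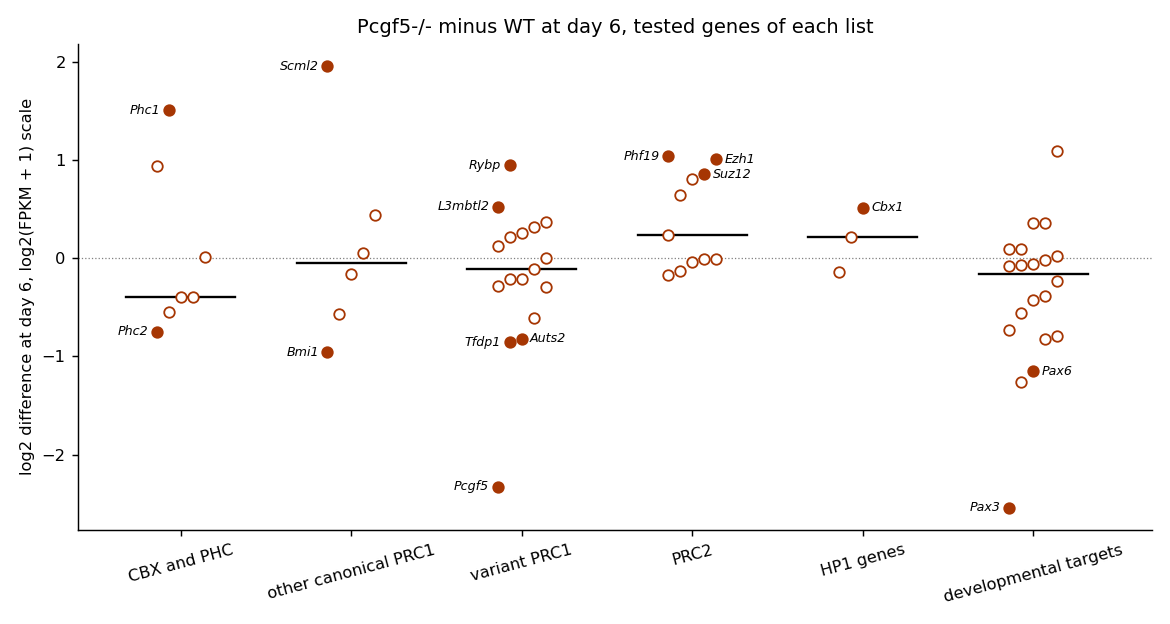
Difference between *Pcgf5*-/- and WT at day 6 on the log2(FPKM + 1) scale (vertical axis) for the tested genes of 6 lists; filled, named points passed an adjusted p of 0.05 and black lines are list medians. Among the CBX and PHC genes *Phc1* (1.51) and *Phc2* (-0.75) passed, and *Scml2* (1.96) and *Bmi1* (-0.95) did among the other canonical PRC1 genes.

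The genes with the pattern most like a member over the 8 samples were found by Pearson's r of log2(FPKM + 1), as a description. For *Phc2* they were *Cep78* (0.998), *Mapre2* (0.998) and *Sept6* (0.997), for *Cbx2* they included *AI314180* (0.994) and *Tank* (0.993), and for *Phc1* they were *Jade2* (0.984), *Ccdc117* (0.980) and *Stk10* (0.973). The nearest genes were less alike for *Phc3* (*Usp46*, 0.974), *Cbx8* (*9130011E15Rik*, 0.958), *Cbx7* (*Tmem254c*, 0.952) and *Cbx6* (*Mcu*, 0.914). The points of such a correlation are the same 8 libraries, which fall into day 0 and day 6.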

How the data were processed

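RNA from 8 samples, 2 in each of 4 groups taken from the sample labels, was sequenced after poly(A) selection. The authors removed identical duplicate reads, aligned to mm9 with TopHat2 2.0.4 and computed FPKM per gene with Cufflinks 2.1.1 (versions and build from the submitters' processing notes), and these deposited FPKM values are scaled for gene length and library size. The annotation, and whether strand was used, are not given in the sources used here. Removal of identical reads lowers the values of abundant transcripts.

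Each file listed 24849 rows, and 5057 genes were at 0 in all samples. Values were analysed as log2(FPKM + 1), which understates the fold change of low genes, over the 13214 genes with a mean over 1 FPKM in at least 1 group. A single fit of limma 3.58.1 in R 4.3.3 used all 8 samples, 4 group means and limma's variance trend, without a replicate block. P-values (two-sided) were adjusted over all tested genes (Benjamini-Hochberg) and called under 0.05. The study describes its samples as independent biological ones, without saying whether these are separate cultures or colonies, and p-values measure the spread between them. Tables were handled with Python 3.11.15 and pandas 2.3.3. The Cufflinks intervals cover the estimation of single values only, and depth is not in the files.

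Named are every member, *Pcgf5*, the called genes of a list with the largest differences, and for each member the genes with the highest correlation among those with a mean over 5 FPKM in a group. *Rnf2* and *Cbx1* were named after their values were seen. Some genes that these rules name, and a wider CBX sum, are not reported here. Members and lists were chosen with earlier results of these data known. Alternatives were a pseudocount of 0.1, no filter or a mean over 5 FPKM, quantile normalization, median ratio scaling, centring on the own chromosome, replicate blocks, only the groups compared, a fit without the variance trend, and dropping each sample in turn.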

Additional observations from a re-analysis of the deposited data

Results flagged for a closer look

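The genotype difference of *Phc2* was lower at day 6 than at day 0 by 1.15 on the log2(FPKM + 1) scale (difference of the differences -1.15, SE 0.22, limma adjusted p = 0.0410), and it drew attention because the difference between the days was itself tested. Both *Pcgf5*-/- libraries were above both WT libraries at day 0 (9.24 and 11.5 against 6.91 and 8.25 FPKM) and below them at day 6 (34.6 and 38.1 against 58.3 and 65.5 FPKM). The day 0 difference did not pass (0.40, limma adjusted p = 0.242), and 47.9% of tested genes had libraries apart at day 0. The call of the change was lost without the filter on low values. It was also lost without any one of the 8 libraries, at values between -1.30 and -1.01. No other member passed this test.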

How the results depend on the processing

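With 2 samples a group, calls near the threshold depended on the fit. *Phc2* and *Cbx2* were called over the 6 days in both genotypes under every alternative and with each sample left out. *Phc1* and *Phc2* were called between the genotypes at day 6 under every alternative that kept all samples of day 6.

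At day 0, 44 genes were called between the genotypes, and 6 without the filter on low values, 102 with a mean over 5 FPKM, 3 with quantile normalization, 2 with median ratio scaling, 2 centred on the own chromosome, 0 with only the groups compared (2019 genes had an unadjusted p under 0.05) and 2 without the variance trend. No member was called in any of these. For the change of the genotype effect between the days, 408 genes were called, 251 with a pseudocount of 0.1 and 86 without the filter, where 0 members were called and *Phc2* had an adjusted p of 0.0716. With median ratio scaling, quantile normalization and chromosome centring, the share of higher calls went from 43.4% to 54.7%, 57.7% and 53.0% for this change; it was 57.0% with a pseudocount of 0.1. For the genotypes at day 6 it went from 57.6% to 49.0%, 52.2% and 46.7%, over the 6 days in WT from 67.8% to 50.3%, 51.3% and 50.6%, in *Pcgf5*-/- cells from 67.9% to 52.1%, 53.1% and 52.6%, and at day 0 from 86.4% to 0% under each. The cause of these moves was not tested.

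Small differences that missed the threshold changed sign. At day 0 the difference of *Cbx8* (0.08) was -0.064, -0.054 and -0.43 with quantile normalization, median ratio scaling and chromosome centring, and that of *Phc3* (0.02) was -0.15, -0.11 and -0.043. In WT over the 6 days *Cbx6* (0.09) had -0.17, -0.14 and -0.12 in the same order, and *Phc3* (0.25) had -0.22 with quantile normalization. At day 6 *Cbx6* (0.01) had -0.042 with median ratio scaling and -0.0034 with chromosome centring.

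The replicate differences of the genotypes had an r of 0.10 (day 0) and 0.39 (day 6) with each other, and of -0.08 to -0.02 across the days. The study's methods speak of paired samples of the genotypes without saying what pairs them, and the labels give a number alone, so the fit without a block was kept. With the replicate block, 1 gene was called at day 0 and *Phc1* passed over the 6 days in *Pcgf5*-/- cells (adjusted p = 0.0429). With a replicate block for each day, 282 genes were called at day 0 and 1167 for the change between the days, among them 3 members, *Cbx2* (adjusted p = 0.0325) and *Phc1* (adjusted p = 0.0311) besides *Phc2*. In that fit *Cbx8* over the 6 days in WT (adjusted p = 0.00274) and *Phc1* in *Pcgf5*-/- cells (adjusted p = 0.00751) passed. The blocks changed no other call of a member.

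Leaving out each sample in turn gave 1 to 22 called genes at day 0, 297 to 1977 at day 6 with 0 to 2 members, 4702 to 6535 over the 6 days in WT with 2 to 3 members, 2367 to 4147 in *Pcgf5*-/- cells with 2 to 3 members, and 4 to 347 for the change between the days with 0 to 1 member. Ranges that crossed zero were, at day 0, *Cbx6* (-0.31 to 0.19), *Cbx8* (-0.43 to 0.59) and *Phc3* (-0.043 to 0.083); at day 6 *Cbx6* (-0.070 to 0.093); in WT over the 6 days *Cbx6* (-0.16 to 0.33), *Cbx7* (-1.37 to 0.017) and *Phc1* (-0.60 to 0.050); and for the change between the days *Cbx6* (-0.18 to 0.32). Without the first WT library of day 6 the change of *Cbx7* between the days passed at 1.76 (adjusted p = 0.0264). Over the single results, 249 of 280 values with a sample left out and 313 of 333 under the other alternatives kept their direction and side of the threshold. FPKM without counts leave the precision of low members such as *Cbx8* and *Phc3* unknown.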
